A study of Homo sapiens with 4 samples.

Results

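The nuclei described here are those annotated as enteric neurons in enteric ganglioids, 3D aggregates of neurons and neural precursors grown in suspension from the human embryonic stem cell line H9. They were chosen by the deposited class name alone, and they numbered 6557 of the 14812 nuclei that carry a class name and of the 25306 nuclei in the deposited matrices. RNA of single nuclei was sequenced (snRNA-seq) in 4 samples labelled as stage 1 ganglioids, each a pool of several ganglioids. Of these, 2 samples are labelled control, and the 2 treated samples received 2 µM of PP121, which inhibits several receptor tyrosine kinases, over days 15 to 20 of the differentiation. All 4 samples share the cell line and the induction protocol, which passes through enteric neural crest, including the growth factor GDNF in the medium from day 15 on, and no introduced allele is given in their labels. Both replicate 1 samples are dated day 42 in the deposited annotation, and both replicate 2 samples day 38. Inside that annotation, however, control replicate 1 bears the name of a stage 1 control replicate 2 and control replicate 2 that of a stage 2 control replicate 1. The labels were followed here, so a difference in stage between the controls and a swap of their numbers were not tested. Values of the 4 samples are given below in the order control replicate 1, control replicate 2, PP121 replicate 1 and PP121 replicate 2. In that order annotated neurons numbered 2301, 1250, 2030 and 976 and made up 53.7%, 41.3%, 44.3% and 33.5% of the nuclei with a class name. The other 8255 nuclei were named Progenitor 1, Progenitor 2, Mesenchymal, Epithelial or Unknown.

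Neurons of the gut wall descend from neural crest cells that migrate into the gut, where the homeodomain factor PHOX2A, the bHLH factor HAND2, the receptor tyrosine kinase RET and the endothelin receptor EDNRB are needed for their formation. As precursors leave the cell cycle, Notch target genes such as HES1 and HES5 are lowered, and proneural and later factors turn on neuronal splicing regulators, tubulins and microtubule-associated proteins, ion channels and the machinery of transmitter release. Mature enteric neurons are grouped by their transmitters, chiefly acetylcholine and nitric oxide, and by peptides such as VIP and NPY. GABA and glycine are the main inhibitory transmitters of the brainstem and spinal cord, where PAX2, PAX8, LHX1 and LHX5 mark many inhibitory interneurons.

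Over each sample, the UMIs (unique molecular identifiers, 1 for each captured RNA molecule) of annotated neurons summed to between 8755285 and 18951821, and those of all other annotated nuclei to between 13761194 and 17137378. A median of 7480 UMIs stood behind a neuron nucleus, 5883 behind a progenitor and 7601 behind a mesenchymal nucleus. Mesenchymal nuclei made up 0.934% and 0.719% of the replicate 1 samples but 13.5% and 14.5% of the replicate 2 samples, so the other classes were a different mixture on the 2 dated days. Within the annotated neurons 236 nuclei carried the deposited subtype name Non-Neuronal, 143 and 61 of them in PP121 replicates 1 and 2. Pairs of samples shared between 0 and 8 barcodes of annotated nuclei.

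Neuron nuclei held more UMIs and more genes than the other nuclei in each of the 4 samples, a difference that an exact test of 4 pairs cannot call at 0.05. The median neuron held 7345, 7782, 7210 and 8102 UMIs, against 6639, 6501, 5569 and 6373 in the other classes. Neurons were higher in 4 of 4 samples, by a mean of 1339 ± 465 UMIs (SD, n = 4; exact two-sided sign-flip permutation test, p = 0.13, the smallest p that 4 pairs allow). They also had more genes detected, by a mean of 418 ± 124 per nucleus (SD, n = 4), again in 4 of 4 samples. Ribosomal protein genes took a smaller part of their UMIs, at 0.865%, 0.703%, 0.716% and 0.684% against 1.03%, 0.980%, 1.17% and 1.06%, and the median share of mitochondrial UMIs was 0 in every set. Deposited cell cycle calls placed 46.8%, 48.8%, 35.3% and 37.5% of neurons in S or G2/M phase, against 55.1%, 55.0%, 61.7% and 55.1% of the other nuclei. Those calls stand beside low cycling genes in the neurons (MKI67 at 2.76 to 10.4 CPM, counts scaled to a total of 1000000), so no cycling is read from them.

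The question asked of every gene was how its level in annotated neurons compared with that in all other annotated nuclei of the same sample. Counts were summed per sample and arm, scaled to CPM with TMM factors, and fitted with the sample as a block. A gene was called when its log2 difference was at least 1 in size and it lay on the same side in all 4 samples. Because the classes were annotated from clusters of these same nuclei, the differences are descriptions and carry no p-value. By this rule 2009 genes (9.36% of 21465) were higher in neurons and 1804 (8.40%) were lower, and the median over all genes was 0.01. At the edge of the rule, TXNDC16 and OTUD7A were just inside at 1.00, and CTIF and TMEM108 were just outside, also at 1.00 after rounding. On the lower side NEDD9 was just inside at -1.01 and DLG1 just outside at -0.99.

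The genes given as markers of the class were all higher. MAP2, a microtubule-associated protein of neurons, stood at 1126, 1272, 1304 and 1511 CPM in neurons and at 607, 517, 516 and 564 CPM in the other classes, a log2 difference of 1.24 ± 0.10 (SE, 4 samples). The neuronal tubulin TUBB3 differed by 1.60 ± 0.10, with 190 to 236 CPM in neurons and 56.4 to 77.3 CPM elsewhere. SLC17A6, which loads glutamate into synaptic vesicles, stood at 17.9, 40.1, 42.5 and 62.4 CPM against 0.987, 2.20, 4.03 and 3.76 CPM, a difference of 3.90 ± 0.16. The arms did not overlap for any of the 3 genes. Of the 11 genes that the study used to annotate neurons 10 were called higher, which is no independent evidence since they named the class. The synaptic adhesion gene NRXN3 was the highest among them, with 5180, 4371, 6729 and 4234 CPM in neurons and 306 to 521 CPM elsewhere, and the cell adhesion gene NRCAM was the exception at 0.84.

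The class name was then checked against factors that define enteric and autonomic neurons. PHOX2A was not called, with 1.78 to 3.56 CPM in neurons and 1.49 to 3.21 CPM elsewhere. A PHOX2A UMI was found in 1.63% of neurons (exact Clopper-Pearson 95% interval 1.34 to 1.97; intervals and floors here cover counting error only), 1.55% of progenitors and 1.33% of mesenchymal nuclei, and the interval for mesenchymal nuclei, 0.688 to 2.31%, held the share in neurons. All annotated neurons together held 3 UMIs of HAND2, 3 of TLX2, 1 of TBX3, 2 of NPY and none of VIP, where 3 UMIs amount to 0.0539 CPM. RET was called higher, at 1.22 ± 0.26, from levels of 1.23 to 1.78 CPM against 0.555 to 0.734 CPM. EDNRB was lower in neurons, by a log2 difference of -2.73 ± 0.21. An EDNRB UMI was found in 0.946% of neurons and 3.97% of progenitors. Since EDNRB is needed while enteric neurons form, nothing about the class name is read from its lower level.

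In the list of 29 enteric and autonomic factors, 22 passed the filter on low counts, 11 were higher and 4 lower, with a median of 0.72. Besides RET, the higher members included INSM1, L1CAM, GFRA1, GFRA2, EBF1 and MEIS2, which other neurons also express. The lower members were EDNRB, SOX6, ETV1 and BNC2. Pan-neuronal markers were thus high in the class, while several defining enteric markers were near 0 or at the level of the progenitors and others, RET among them, were called higher from low levels. In a joint clustering of all 4 samples, 5.30%, 7.44%, 2.12% and 5.33% of the class lay outside the clusters made up mostly of its nuclei. Of the nuclei of the other classes, 9.43%, 4.33%, 10.7% and 4.96% lay inside those clusters, and they stayed among the other classes in the class difference. The nuclei are therefore called annotated neurons from here on, by the rule that chose them.

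**Figure D1:**
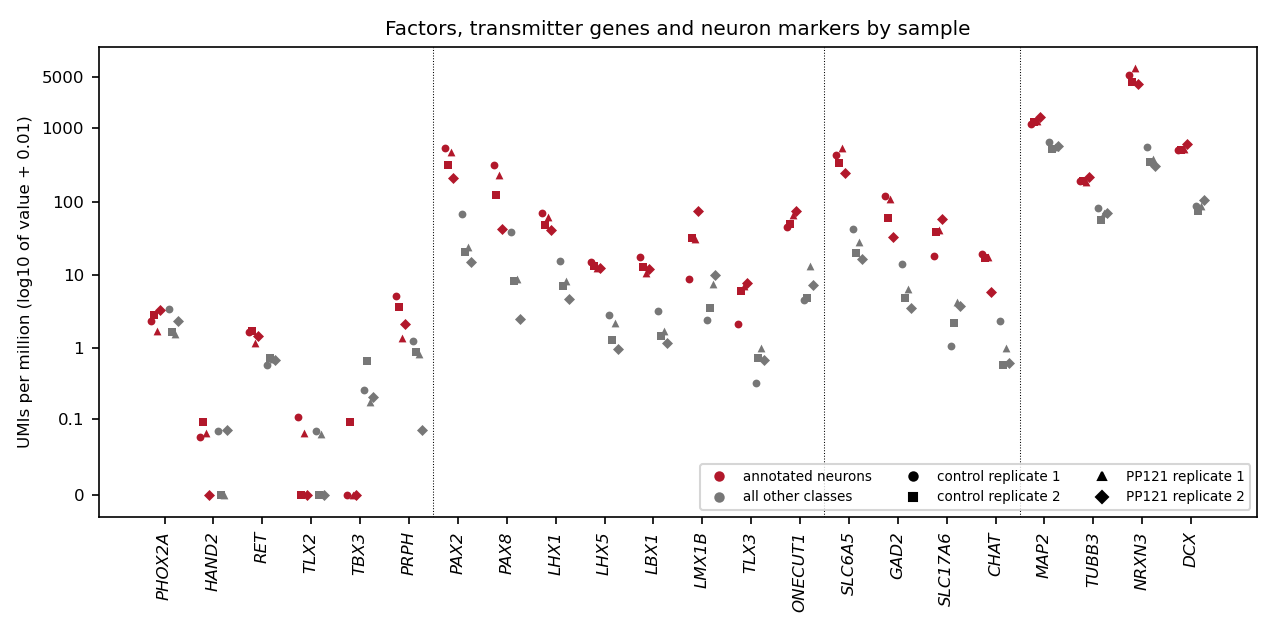
CPM, before TMM scaling, of enteric and autonomic factors (left), hindbrain and spinal cord factors, transmitter genes and neuron markers (right), on a log axis. Each point is the sum of 1 sample, red for annotated neurons and grey for all other annotated classes; HAND2, TLX2 and TBX3 lie near 0 in both, PHOX2A overlaps between the arms, and the 4 red points of PAX2, PAX8 and SLC6A5 lie above the 4 grey points.

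A list of 42 factors of hindbrain and spinal cord interneurons had the highest median of all 29 lists, 2.63 over the 24 members that passed the filter, of which 16 were higher and 3 lower. The lists were chosen with earlier results of these data known, and a gene can pass the filter through its level in neurons alone. The rank of this list is therefore a description and no independent evidence. PAX2 stood at 522, 327, 492 and 226 CPM in annotated neurons and at 62.4, 20.5, 22.6 and 15.1 CPM elsewhere, a log2 difference of 3.84 ± 0.21. PAX8 stood at 311, 126, 236 and 45.5 CPM against 35.9, 8.37, 8.38 and 2.46 CPM, a difference of 3.95 ± 0.26. The lowest neuron value of each gene was above the highest value of the other classes. The LIM homeodomain factors LHX1 and LHX5 differed by 2.80 and 2.96, LBX1 by 2.93, ONECUT1 by 3.14 and SKOR2 by 3.81. LMX1B and TLX3, which in the dorsal spinal cord mark glutamatergic neurons, differed by 2.60 and 3.11, with LMX1B at 8.65, 32.5, 31.7 and 78.8 CPM. PAX2 and PAX8 were thus lower in the replicate 2 samples than in the replicate 1 samples of the same group, and LMX1B higher.

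A PAX2 UMI was present in 51.4% of annotated neurons, 9.91% of progenitors and 5.87% of mesenchymal nuclei, and a PAX8 UMI in 39.3%, 4.89% and 1.99%. After each nucleus was thinned to 2000 UMIs, which left out 2 to 10 neurons and 10 to 32 other nuclei per sample, the PAX2 shares were 35.7%, 4.66% and 1.78%. Per kb of gene span, the level in neurons was 7.25 CPM per kb for LHX1, 4.15 for PAX2 and 2.85 for PAX8. These levels are set per length only as a guide, since reads of a 3′ assay need not scale with the span of a gene. Members of the list that stayed under the filter included EN1, EVX1 and TAL1, with 18, 9 and 3 UMIs in all annotated neurons. LMX1A was the main exception on the lower side at -5.71, and its counts lay in the Unknown class, at 419 CPM there against 0.668 CPM in annotated neurons and 1.22 CPM or less in progenitors. Against progenitors alone its difference was -0.69.

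Genes of transmitter synthesis and transport had a median of 2.19, with 11 of 19 tested members higher and 1, the glycine transporter SLC6A9, lower. SLC6A5, the neuronal glycine transporter, had the largest difference among them, at 419, 345, 549 and 262 CPM against 39.2, 19.9, 26.6 and 16.7 CPM, or 3.96 ± 0.15. It was seen in 49.2% of annotated neurons, 9.10% of progenitors and 5.54% of mesenchymal nuclei. GAD2, which makes GABA, stood at 117, 62.4, 110 and 35.6 CPM against 3.49 to 13.0 CPM, a difference of 3.60 ± 0.17. GAD1 and SLC32A1, the shared vesicular transporter of GABA and glycine, differed by 2.41 and 2.43. CHAT and SLC5A7, which make acetylcholine and take up choline, differed by 3.82 and 3.24 from lower levels, CHAT with 19.2, 17.4, 18.1 and 6.27 CPM. NOS1, which makes nitric oxide, stood at 4.22, 5.33, 6.64 and 9.09 CPM in neurons and differed by 2.19 ± 0.28. TH, of catecholamine synthesis, differed by 2.69, and DDC by 2.22, while TPH2 and SLC6A4 of the serotonin pathway were not called, at -0.40 and -0.30.

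Of 35 genes of neuropeptides and dense-core granules 23 passed the filter, 13 were higher and none was lower. The granule genes gave most of these, among them PCSK2 at 3.18, SCG3 at 2.68, CHGA at 2.16 and CHGB at 2.14. Of the peptides themselves, ADCYAP1 was at 2.67, TAC3 at 2.04, TAC1 at 1.93 and SST at 1.48. GAL, CALCA and CCK had 3, 11 and 15 UMIs in all annotated neurons and were not tested.

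Neuronal RNA-binding proteins, which set neuron-specific splicing and RNA stability, were higher in 14 of 23 members, with a median of 1.42. ELAVL4 differed by 3.17, SRRM4 by 3.15, CELF4 by 3.12 and RBFOX3 by 2.77. QKI, a splicing regulator of glia and precursors, was the only lower member, at 461 to 597 CPM in annotated neurons and 1329 to 2027 CPM elsewhere, or -1.77 ± 0.10. PTBP1 and PTBP2, which restrain neuronal splicing, were not called, at -0.25 and 0.27.

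Cytoskeleton and axonal transport genes were higher in 22 of 35 members and lower in none, led by STMN2 at 3.00, DCX at 2.70, INA at 2.63 and GAP43 at 2.52. Synaptic vesicle and release genes were higher in 28 of 49, led by SYN3 at 2.96, RAB3C at 2.88, DOC2B at 2.70 and UNC13A at 2.43. The lower member was CADPS2, at -2.92, whose counts lay in the mesenchymal, Unknown and epithelial classes and which stood at -0.99 against progenitors alone. VAMP2 and CPLX2, also of the release machinery, were not called, at 0.35 and 0.63.

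Voltage-gated sodium channels were higher in 7 of 11 tested members, calcium channels in 11 of 17 and potassium and pacemaker channels in 19 of 39. SCN2A differed by 2.80, SCN3B by 2.50, CACNA2D3 by 2.46 and CACNA1B by 2.31. Among potassium channels KCNH7 differed by 3.08, KCNB2 by 2.98 and KCNH5 by 2.95, and KCNN3 was lower at -1.26. Glutamate receptors were higher in 13 of 25 members and lower in none, with GRIK3 at 3.82, GRIA1 at 3.40 and GRIA2 at 3.01. GABA and glycine receptors were higher in 8 of 18, with GABRB2 at 3.11 and GABBR2 at 2.40, while GABRE was lower at -3.06. Receptors of acetylcholine and serotonin stayed near the other classes, with a median of 0.14 and 4 of 19 higher, all of them nicotinic subunits (CHRNA3, CHRNA4, CHRNB2 and CHRNB4). HTR3A and HTR3B, subunits of the ionotropic serotonin receptor, had 1 and 34 UMIs in all annotated neurons.

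Synaptic adhesion genes were higher in 28 of 54 members and lower in 2, with CNTNAP5 at 3.77, NRXN3 at 3.75 and DSCAM at 3.52. Axon guidance genes were split, with 12 of 51 higher, 5 lower and a median of 0.49. ROBO3 differed by 3.45, EPHA6 by 3.22, PLXNA4 by 3.15 and DCC, the netrin receptor, by 2.77, with DCC at 1286, 1908, 2277 and 3709 CPM in annotated neurons. SEMA3C and SEMA3D, secreted semaphorins, were lower at -2.78 and -2.08. Neurogenic and differentiation factors were higher in 20 of 35 and lower in none. MYT1L, which represses non-neuronal genes, had the largest difference of that list at 4.00 ± 0.14, followed by ST18 at 3.34 and EBF3 at 3.11, while DLL1 was not called at 0.13.

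Among genes with at least 50 CPM in the higher arm, the 10 largest differences in favour of annotated neurons belonged to PAX8-AS1, KLHL1, MYT1L, SLC6A5, PAX8, AC105389.3, PLD5, PAX2, AC068931.1 and GRIK3. PAX8-AS1, transcribed from the PAX8 locus, was the first at 4.07 ± 0.29, and GRIK3 the last at 3.82 ± 0.14. Reads of PAX8 and PAX8-AS1 cannot be told apart where the genes overlap, because use of strand in counting is not stated. The differences of these genes against progenitors alone lay between 3.62 for GRIK3 and 4.15 for AC068931.1, so they did not rest on the rarer classes.

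The 10 largest differences in the other direction were those of PRRX1, COLEC12, TNC, EYA4, BNC2, COL1A2, AC008957.2, DEC1, CCBE1 and SLC1A3. PRRX1, a mesenchymal factor, gave -4.65 ± 0.39, from 0.313 to 5.04 CPM in annotated neurons and 5.43, 91.0, 4.96 and 119 CPM elsewhere. Its level in the other classes was high in the replicate 2 samples, where mesenchymal nuclei were frequent, and against progenitors alone the difference was -0.09. COLEC12, BNC2 and CCBE1 behaved likewise, at -0.20, -0.08 and 1.26 against progenitors alone, so that CCBE1 changed sides. AC008957.2 and SLC1A3, a glutamate transporter of glia and radial progenitors, kept large differences against progenitors, at -3.09 and -3.00.

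Genes of precursors were low in annotated neurons. Of 32 genes of the Notch pathway and of radial progenitors 26 were lower and none higher, with a median of -1.67, which was also -1.67 against progenitors alone. HES1 stood at 6.41, 8.51, 8.05 and 8.11 CPM in annotated neurons and 52.0, 67.4, 60.4 and 71.4 CPM elsewhere, a difference of -3.01 ± 0.09, and HEY2 differed by -4.22. Cell cycle genes were lower in 25 of 35 members and higher in none, with MKI67 at -2.13 and RRM2 at -2.73. Of the 7 genes that the study used to annotate progenitors 6 were lower, led by NFIA at -3.34. These genes named the progenitor classes, so their lower level is no independent evidence. In the list of 17 genes of glia and Schwann cell precursors, 4 of 13 were higher and 4 lower. The 4 higher members were SLC1A2, TFAP2A, TFAP2B and FOXD3, of which the TFAP2 factors also occur in interneurons. FOXD3 was sparse, with a UMI after thinning in 0.168% of annotated neurons, 0.0452% of progenitors and 0.334% of mesenchymal nuclei. Its difference of 1.13 became -0.05 when each other class had equal weight. SOX10, which marks enteric glia, was not called, with 8.48 to 14.5 CPM of SOX10 in annotated neurons and 8.21 to 10.7 CPM elsewhere, and GFAP had 7 UMIs in all annotated neurons.

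Markers of other cell types were sparse. The study's mesenchymal genes were lower in 11 of 13 members. These genes too named a class, and their median was -2.99, but -0.43 against progenitors alone. CDH1 and EPCAM, of epithelia, were not called, and KRT19 was lower at -2.86. Of the endothelial, immune, muscle and ciliated markers CDH5 was higher at 1.41, from 5.76 CPM, while PECAM1 and PTPRC were not called. Sensory ganglion factors were higher in 5 of 16 tested members, with P2RX3 at 3.27 and EYA2 at 2.23, and PIEZO2 was lower at -3.28. NKX2-1 and SIX6, of the forebrain, had no UMI in any annotated neuron, and no tested member of that list was higher.

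HOX genes, whose paralog groups follow position along the body axis, were read by group. The 12 genes of groups 1 to 4 held 8839 UMIs in annotated neurons (159 CPM) and 4473 in the other classes (73.7 CPM). The 18 genes of groups 5 to 10 held 21 UMIs (0.377 CPM) and 46 UMIs (0.758 CPM). Among the 7 HOX genes tested HOXB3 and HOXD3 were higher in annotated neurons, at 1.75 and 1.48, and none was lower.

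**Figure D2:**
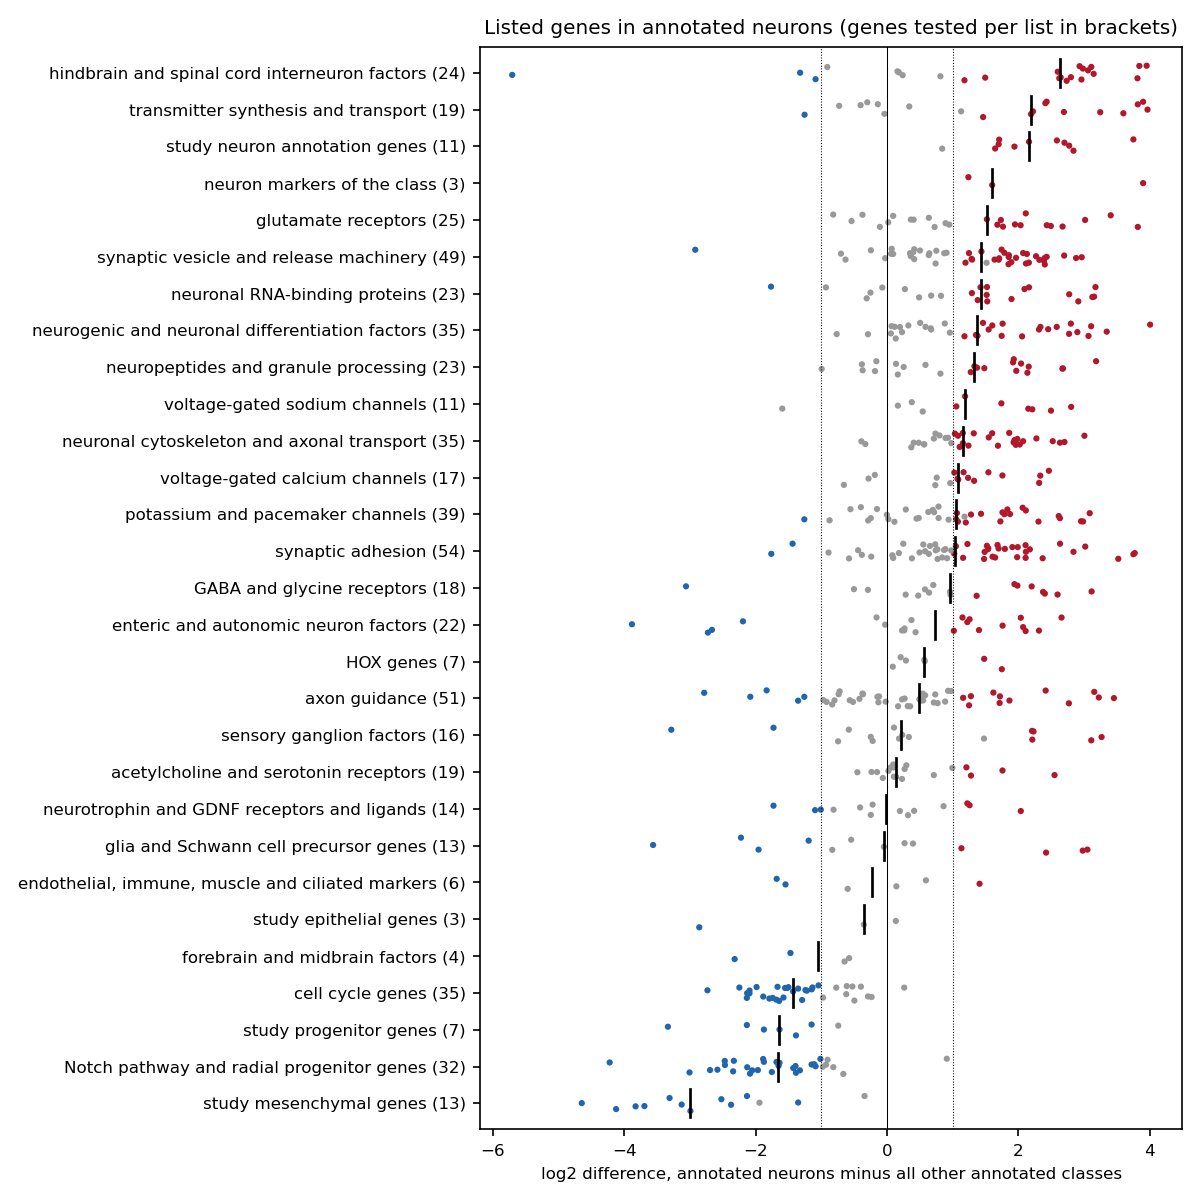
Log2 difference between annotated neurons and all other annotated classes for each tested gene of the 29 lists, with the number of genes tested in brackets. Red points were called higher and blue points lower in annotated neurons, grey points were not called, black bars mark medians and dotted lines mark a 2-fold difference; the interneuron factors lead with a median of 2.63 and the mesenchymal genes stand last with -2.99.

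The called genes also differed in the length of their transcription units, which the rule did not use. A span was found for 92.7% of the genes higher in annotated neurons, 95.0% of the lower genes and 94.9% of all tested genes. The median span was 37.8 kb for the higher genes, 48.3 kb for the lower genes and 29.2 kb for all. Spans of 100 kb or more were held by 30.1% of the higher and 30.3% of the lower genes, against 19.9% of all. Protein-coding genes made up 61.8% of the higher genes, 71.5% of the lower genes and 73.5% of all.

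The deposited annotation divides the neurons of the control samples into the subtypes EN 1 to EN 8 and those of the PP121 samples into EN A to EN I. The names come from separate annotations, so the annotation and the treatment cannot be told apart between them, and each set is described on its own. The subtypes were clustered on these nuclei, and their levels are given without a test.

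MAP2 varied little, from 989 CPM in EN 5 to 1574 CPM in EN 2 and from 1056 CPM in EN H to 1887 CPM in EN B. The regional factors had wider ranges. LMX1B was highest in EN 8 and EN H, at 77.9 and 179 CPM, and 3 subtypes of each set held 78.3% of its control UMIs and 91.0% of its PP121 UMIs. In EN 8 it stood at 37.7 and 109 CPM in control replicates 1 and 2, and in EN H at 139 and 227 CPM in PP121 replicates 1 and 2. TLX3, at 17.6 and 22.7 CPM, and TAC1, at 56.2 and 90.0 CPM, had their highest levels in the same pair of subtypes.

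PAX2 was low in the subtypes with the most LMX1B, at 34.0 CPM in EN 8 and 30.8 CPM in EN H. In the control set it was lowest in EN 8 and highest in EN 7, at 1019 CPM, and in the PP121 set it ran from 22.9 CPM in EN I to 1315 CPM in EN G. PAX8 was highest in the same EN 7 and EN G, at 682 and 808 CPM, as was GAD2, at 252 and 254 CPM. EN 7 and EN G came almost wholly from replicate 1, with 253 and 99 nuclei there against 9 and 1 in replicate 2. SLC6A5 was highest in EN 3 and EN C, at 951 and 1415 CPM, and lowest in EN 8 and EN I, at 17.6 and 20.0 CPM.

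SLC17A6 was highest in EN 4 and EN I, at 130 and 153 CPM, with 102 and 122 CPM in EN 8 and EN H. EN I also held the LHX9 counts, at 266 CPM, where no other subtype passed 18.6 CPM. NOS1 was highest in EN 4, at 15.5 CPM, and EN D, at 38.5 CPM. EN D had 114 nuclei in PP121 replicate 1, at 41.2 CPM, but only 10 in PP121 replicate 2, where no NOS1 UMI was found, and in that sample NOS1 stood at 137 CPM in the 29 nuclei of EN E. ROBO3, a receptor of commissural axons, was highest in EN 2 and EN B, at 546 and 571 CPM. MKI67 was at 4.03 CPM or less in every EN subtype and at 48.7 CPM in the nuclei named Non-Neuronal, which also held 328 CPM of PAX2.

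**Figure D3:**
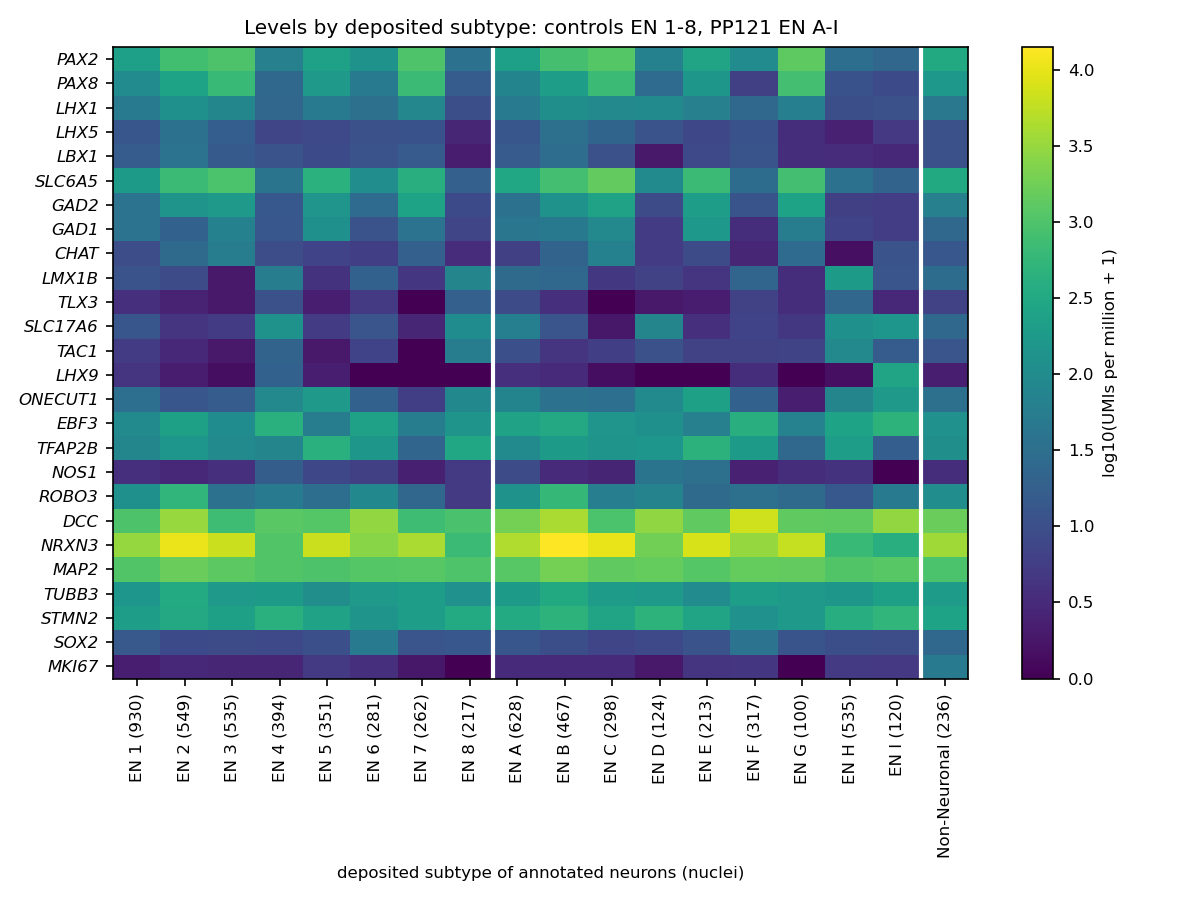
Levels of 26 genes (rows) in the deposited subtypes of annotated neurons (columns, with nuclei in brackets), as log10 of CPM plus 1, pooled over the samples of each set. White lines part the control subtypes, the PP121 subtypes and the nuclei named Non-Neuronal; the rows of LMX1B and TAC1 are brightest in EN 8 and EN H, where PAX2 and SLC6A5 are darker than in most other columns.

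Single nuclei showed the same division after thinning to 2000 UMIs. Annotated neurons with a LMX1B UMI numbered 40, 66, 112 and 114 in the 4 samples, and of these 17.5%, 10.6%, 8.93% and 0.877% also had a PAX2 UMI. Among neurons without one the PAX2 shares were 45.5%, 29.1%, 40.1% and 19.8%. SLC17A6 went the other way, with a UMI in 15%, 15.2%, 21.4% and 23.7% of LMX1B-positive neurons and in 2.49%, 5.59%, 4.97% and 8.02% of the rest. Of the neurons with a SLC17A6 UMI, 1.61%, 2.63%, 8.40% and 2.08% had a SLC6A5 UMI, against 39.4%, 27.7%, 43.6% and 18.7% of those without. The direction held in all 4 samples for each pair, from few nuclei in the first sample.

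The treatment was not used to choose the nuclei, so PP121 and control could be tested within annotated neurons, over 2 samples of each. Without a block, edgeR's quasi-likelihood test called 0 of 21243 genes (0%), with a smallest adjusted p of 0.318. At an unadjusted p under 0.05 it had 2549 genes, and DESeq2 called 87, of which 63 rose and 24 fell. The replicate numbers go with the date in the annotation, although the control names in it conflict with the labels, and the block rests on these numbers. With the replicate as a block edgeR called 3152 genes (14.8%), of which 1694 rose (7.97%) and 1458 fell (6.86%). That fit leaves 1 residual degree of freedom, and it gave 2306 calls when only neurons with an EN subtype were summed. Fewer cells of a subtype and less RNA per cell cannot be told apart in such sums. All rises and falls below are from the fit with the block, in which adjusted p-values are edgeR's with Benjamini-Hochberg adjustment over all genes. CPM values in these paragraphs were scaled over the 4 neuron sums alone and differ slightly from those above.

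By the naming rule, the genes with the smallest p without the block were AC092957.1, CA10 and C4orf47. CA10, a carbonic anhydrase-related protein that binds neurexins, stood at 10.8 and 9.72 CPM in control and 29.6 and 27.8 CPM in PP121 neurons, with adjusted p = 0.377 in edgeR's test without the block. With the block the largest rises with separated groups belonged to SHOX (2.42 on the log2 scale) and to AL008633.1, AC092957.1, AC092958.4 and AC105389.3 (2.07 to 2.46). SHOX, a homeodomain factor, stood at 1.74 and 10.1 CPM in control and 18.2 and 34.2 CPM in PP121 neurons. The largest falls were LINC00326 at -1.81, STXBP5-AS1 at -1.65, MT-ND3 at -1.58, AC004949.1 at -1.53 and MT-ATP6 at -1.48. MT-ND3 and MT-ATP6 are transcribed in mitochondria, and their part in the other changes was not tested.

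Among the 2009 genes called higher in annotated neurons 392 rose (19.5%) and 109 fell (5.43%). Their levels are higher too, and of all 2406 genes with at least 100 CPM in annotated neurons 19.4% rose and 8.98% fell. At 10 CPM or more, 28.5% of the 1079 neuron-high genes rose and 7.60% fell, against 11.7% and 10.2% of all 11340 genes of that level. The 2 contrasts share their samples. Among the neuron-high genes ADCY8, an adenylyl cyclase, rose by 1.70 ± 0.15 and NREP-AS1 by 2.02, while MAB21L1 changed by -1.20, PLAC1 by -1.07, CDKN2D by -0.83 and LINC02839 by -0.81.

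Axon guidance genes rose in 26 of 51 tested members and fell in none. DCC stood at 1262 and 1854 CPM in control and 2186 and 3579 CPM in PP121 neurons (0.87 ± 0.08, adjusted p = 2.75e-08 in edgeR's test). UNC5C, also a netrin receptor, stood at 215 and 252 CPM against 412 and 419 CPM (0.84 ± 0.09). The slit receptor ROBO2, EPHA3, EPHA6, PLXNA4 and NTNG1 rose by between 0.45 and 0.75. With EN subtypes only, 23 of the 51 rose and none fell. Other lists with most of their calls upward were synaptic adhesion (17 rose and 2 fell of 54), neurogenic factors (14 and 3 of 37), potassium channels (10 and 2 of 40) and RNA-binding proteins (9 and 0 of 23). In that order their risen shares were 31.5%, 37.8%, 25% and 39.1%, against 7.97% of all genes. Of the neuron-high genes with at least 10 CPM, 28.5% rose. RBFOX1 rose by 0.93 ± 0.09, from 734 and 615 CPM to 1251 and 1320 CPM. CACNA2D1, an auxiliary calcium channel subunit, rose by 1.46 ± 0.09, GRIK1, a kainate receptor subunit, by 1.71 ± 0.13, and the growth factor gene NRG1 by 1.25 ± 0.09.

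Enteric and autonomic factors rose in 12 of 24 tested members (50%) and fell in 1, where 7.97% of all genes rose and 6.86% fell. Of the neuron-high genes with at least 10 CPM, 28.5% rose. With EN subtypes only, 9 of the 24 factors rose and 1 fell, where 6.12% of all genes rose and 4.92% fell. EBF1 rose by 1.00, from 199 and 341 CPM in control to 376 and 725 CPM in PP121 neurons, and GFRA1 by 0.93, while PRPH, a peripheral intermediate filament, changed by -1.38. Genes with their highest levels in EN 8 and EN H rose too, LMX1B by 1.53 ± 0.14, TAC1 by 1.56 ± 0.17 and TLX3 by 1.06 ± 0.27. SLC17A6, which was highest in EN 4 and EN I, rose by 0.92 ± 0.13. LMX1B overlapped by little between the groups, with 8.49 and 31.6 CPM in control and 30.5 and 76.0 CPM in PP121 neurons. LHX9, of subtype EN I, rose by 2.03 ± 0.30. The subtype EN 8 held 4.30% and 9.44% of annotated neurons in control replicates 1 and 2, and EN H held 14.9% and 23.9% in PP121 replicates 1 and 2. These shares come from separate annotations, and their part in the rise of LMX1B was not tested.

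PAX factors and transmitter genes followed other directions. PAX8 changed by -0.89 ± 0.14 (adjusted p = 4.6e-05 in edgeR's test), PAX2 by -0.32 ± 0.10 (0.0216), GAD2 by -0.42 ± 0.12 (0.0205) and CHAT by -0.63 ± 0.21 (0.037). When only EN subtypes were summed, PAX8 kept its call, while PAX2, GAD2 and CHAT lost theirs, at adjusted p = 0.0946, 0.104 and 0.13 in edgeR's test. Without the block, the direction of PAX8, PAX2 and GAD2 turned when control replicate 1 (0.16, 0.12 and 0.22) or PP121 replicate 2 (0.09, 0.19 and 0.27) was left out. SLC6A5 and LHX1 were not called, at -0.02 and -0.16. NOS1 rose by 0.68 ± 0.23 (adjusted p = 0.0417 in edgeR's test), from 4.14 and 5.18 CPM to 6.37 and 8.78 CPM. Few nuclei carried its counts, since 38 of the 74 NOS1 UMIs of PP121 replicate 2 lay in 5 nuclei of EN E, and without EN E its level before TMM scaling was 5.52 and 4.25 CPM in the PP121 samples, against 4.27 and 5.14 CPM in the controls. The share of annotated neurons with a NOS1 UMI was 2.26%, 2.40%, 2.07% and 2.05% in the 4 samples, against 1.22% of mesenchymal nuclei. MAP2 and TUBB3 were not called, at 0.21 and 0.11.

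Other lists had calls both ways, where 7.97% of all genes rose and 6.86% fell. Transmitter genes rose in 2 and fell in 5 of 20 (10% and 25%). Neuropeptide and granule genes rose in 2 and fell in 4 of 24 (8.33% and 16.7%). Vesicle genes rose in 7 and fell in 7 of 49 (14.3% each). Cytoskeleton genes rose in 8 and fell in 6 of 35 (22.9% and 17.1%). The risen shares of the transmitter and peptide lists were near that of all genes. With EN subtypes only, the rises stayed the same and the falls were 1, 3, 5 and 4, in that order. VAMP2 changed by -0.91 ± 0.12, TUBB2A by -0.50 and UCHL1 by -0.51, whereas STMN2 rose by 0.40 and GAP43 by 0.57. Of 8 HOX genes HOXD3, HOXB2 and HOXA3 changed by -0.85, -0.74 and -0.46, and none rose, although HOXD3 turned direction without the block when control replicate 1 was left out (0.40). Cell cycle genes rose in 6 and fell in 2 of 35 over all annotated neurons (17.1% and 5.71%). With EN subtypes only they rose in 2 and fell in 2 (5.71% each), where 6.12% of all genes rose and 4.92% fell.

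**Figure D4:**
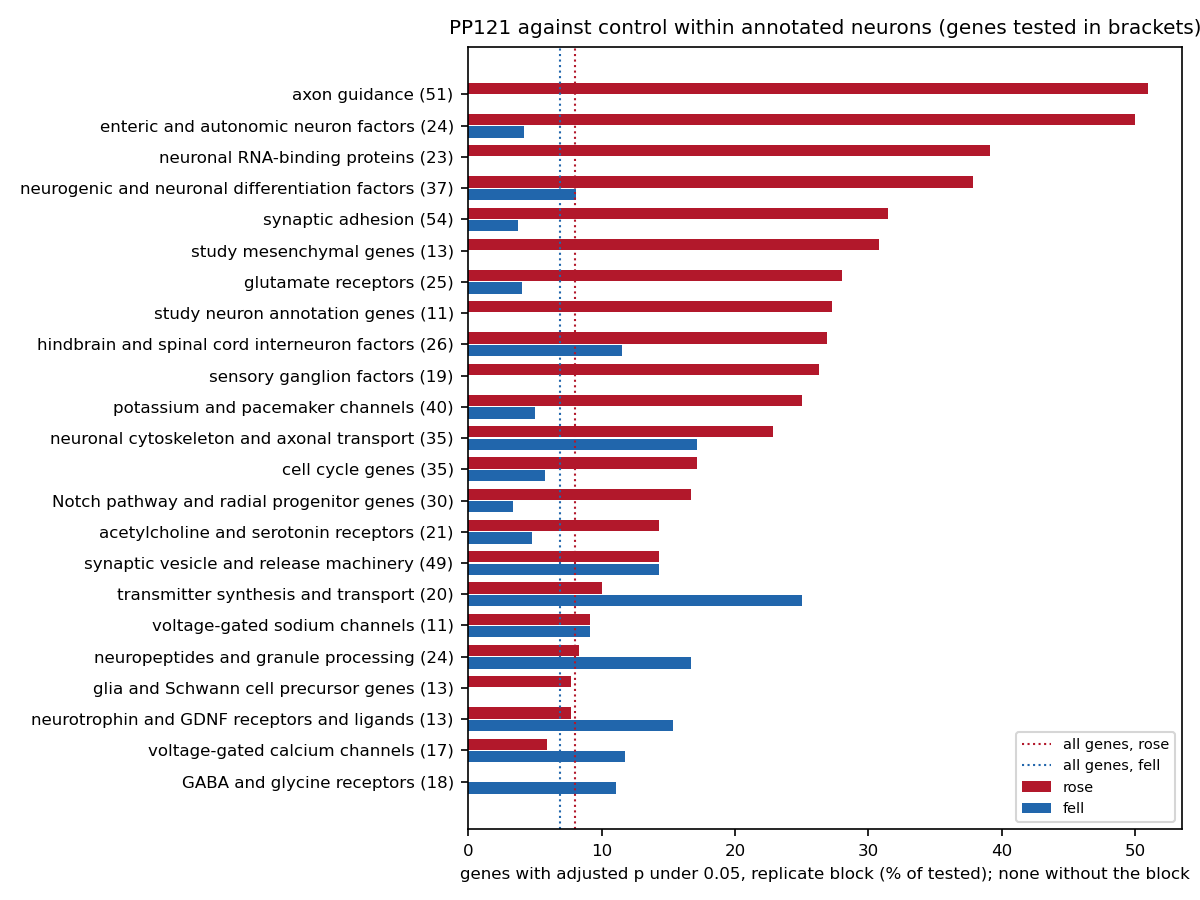
Share of tested genes of each list (number tested in brackets) that rose (red) or fell (blue) with PP121 in annotated neurons, called at 0.05 after adjustment by edgeR's fit with the replicate block; lists with under 10 tested genes are not shown. Dotted lines give the shares over all genes, 7.97% risen and 6.86% fallen; axon guidance leads with 51.0% risen and 0 fallen, and no gene was called without the block.

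The last comparison asked whether the difference between annotated neurons and the other classes changed with PP121. Without the replicate term edgeR called 0 of 22823 genes (0%), with a smallest adjusted p of 0.668, 1539 genes at an unadjusted p under 0.05 and 7 calls by DESeq2. With the class-by-replicate term it called 139 genes (0.609%), 72 with a rise of the neuron difference and 67 with a fall. Of the 139 genes 26 (18.7%) were called higher in annotated neurons and 27 (19.4%) lower, against 9.36% and 8.40% of all genes tested for the class difference, which uses the same samples. With EN subtypes only, 13 genes were called.

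Several of the named genes changed mainly in the other classes. The 3 with the smallest p without that term were ANXA8, CFAP47 and LMNTD1. CFAP47 and CDC20B, genes of ciliated cells, stood at 2.63 to 5.88 CPM and 0.782 to 1.10 CPM in annotated neurons of all samples, while in the other classes CFAP47 was at 25.7 and 11.1 CPM in control and 57.7 and 102 CPM in PP121 samples. The largest rises with that term were those of ALPK1, AC016987.1, PCED1B, AL512452.1 and ACSF2, from 2.07 to 1.53 on the log2 scale, and the largest falls were CDC20B at -3.76, SLC5A7 at -2.51, CFAP299 at -2.29, LINC00326 at -2.23 and CFAP47 at -1.75. Of the genes in the lists GRIK1 (1.17, adjusted p = 0.00531 in edgeR's test) and EBF1 (0.99, adjusted p = 0.00966) had a larger neuron difference with PP121, and both kept the call with EN subtypes only. SLC5A7, the choline transporter, and CNTN1, a contactin, had a smaller one, by -2.51 and -0.76, and lost it there, at adjusted p = 0.085 and 0.141 in edgeR's test.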

How the data were processed

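Nuclei of 2 control and 2 PP121 samples were profiled with a 3′ droplet kit and hashtag labels. Per the study's methods, the authors assigned reads to genes with kallisto and bustools, and the submitters' processing notes name GRCh38, Cell Ranger and Seurat 4.0.4. Each deposited count gives how many UMIs a gene had in 1 nucleus, and the counts were used as deposited. Use of introns and of strand is not given in the sources used here, so antisense and overlapping genes are uncertain. The authors removed nuclei beyond limits on genes, UMIs and mitochondrial share, then clusters of low quality; their class and subtype names were kept and nuclei named Filtered were dropped. Mitochondrial and ribosomal percent values and cell cycle calls per nucleus were used as deposited. Samples were grouped by the treatment label. For the controls, sample names inside the annotation conflict with the labels in replicate number and, for control replicate 2, in stage; the labels were followed, also in the replicate block.

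UMIs were summed per sample over annotated neurons and over all other classes and fitted with edgeR 4.0.16 in R 4.3.3 (TMM, filterByExpr, quasi-likelihood), with the sample as block for the class difference, no block for PP121 within neurons, and Benjamini-Hochberg adjustment at 0.05. The replicate as block is given beside it because replicates share an annotated date; control and PP121 neurons of the same number deviated together (correlation 0.421 across 21243 genes). DESeq2 1.42.0, other filters, thinning, leaving out samples and joint clustering with Scanpy 1.11.5 were alternatives. The edgeR fits of the class difference and, without the replicate term, of PP121 and of the change of the neuron difference were tried on simulated data. The fits with the replicate term, DESeq2 and the sign-flip test were not. Scrublet's automatic call marked 0.033% of nuclei or fewer and did not work, so the highest doublet scores (5% of annotated nuclei) were removed as an alternative. Whether replicates were separate cultures rests on the study's text, and p-values measure only the spread between these samples. Gene spans are those of GENCODE 29. Members, the 29 lists and the comparisons were chosen with earlier results of these data known. Named genes are the 10 largest differences each way of at least 50 CPM, the 5 largest PP121 changes each way of at least 10 CPM with separated groups (else the 3 smallest p), and list members. Some genes of these lists count in the totals but are not reported here by name.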

Additional observations from a re-analysis of the deposited data

Results flagged for a closer look

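Nuclei that the authors' annotation left without a class were not used above, but their summed counts held neuronal RNA. In the 4248, 1816, 2400 and 2030 such nuclei of control replicates 1 and 2 and PP121 replicates 1 and 2, NRXN3 stood at 2719, 2115, 3305 and 1588 CPM before TMM scaling. These values lie above the 306 to 521 CPM of the other annotated classes and below those of annotated neurons. Their median depth was 666, 807, 823 and 709 UMIs, and PAX2 stood at 278, 151, 224 and 79.1 CPM in them and SLC6A5 at 208, 141, 235 and 87.5. Deep nuclei weigh most in such sums, and which nuclei carried these counts was not tested. PAX2 was lower in replicate 2 than in replicate 1 of each group here too.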

How the results depend on the processing

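Genes called higher in annotated neurons numbered 1304 when each other class had equal weight and 611 at a 4-fold threshold, against 2009, and 1973 to 2168 when 1 sample was left out. Genes called lower numbered 2741 without a filter and 541 at 4-fold, against 1804, and 1854 to 1986 with 1 sample left out. PP121 within annotated neurons, 0 calls without a block, gave 3152 with the replicate block, 69 without a filter, 87 with DESeq2, 1770 with joint neuron clusters and the replicate block, and 2306 with EN subtypes and the block. Leaving out 1 sample gave 0 to 1402 calls: 1402 without PP121 replicate 1, 156 without PP121 replicate 2 and 0 without either control, where a lone sample is assumed to vary like the other group. The change of the neuron difference, 0 calls, gave 139 with the replicate block, 10 without a filter, 7 with DESeq2, 536 with joint clusters and the block, 13 with EN subtypes and the block, and 360 against progenitors alone with the block; leaving out 1 sample gave 0 each time. Against progenitors alone CCBE1 stood at 1.26, and FOXD3 at -0.050 with equal weights. With PP121, SLC6A5 stood at -0.015 with the replicate block and at -0.036 with joint clusters and the block. Leaving out 1 sample, without a block, turned the direction for PAX8 (-2.29 to 0.16), PAX2 (-0.93 to 0.19), GAD2 (-1.36 to 0.27), HOXD3 (-2.18 to 0.40), SLC6A5 (-0.56 to 0.50), LHX1 (-0.45 to 0.11) and TUBB3 (-0.035 to 0.26). The cause of these changes was not tested. The difference in median UMIs stayed between 1176 and 1550. Settings with EN subtypes only were added after the data were seen. With 2 samples a group, depth limits the factors under 1 CPM.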
